A study of Drosophila melanogaster with 4 samples.

Results

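Chromosome 4 of Drosophila melanogaster carried 252 of the 19437 open-chromatin peaks called in nuclei sorted from embryos for germline GFP, and the accessibility of these 252 peaks, with the transcripts of the genes around them, was compared between germ cells, gonadal soma and other nuclei. The members were chosen by position alone: every peak whose name places it on chromosome 4. Their counts were read against the 4 large autosome arms 2L, 2R, 3L and 3R, which hold 16245 peaks. The X holds 2922 peaks.

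The nuclei came from vas-GFP (II); vas-GFP (III) embryos, in which the germline vasa gene's regulatory sequence drives GFP in germ cells. Germ cells, and later whole gonads with their somatic cells, were sorted by fluorescence from embryos of 0 to 20 h and pooled into 1 multiome library, which reads open chromatin (ATAC) and nuclear RNA (snRNA) from the same nucleus. Both sexes and all ages share this library, and sex and cell type are known only from the clusters that the study formed from these same counts. All 3022 barcodes were present in both parts.

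The study's clusters are germ cells not assigned a sex (GC), female germ cells (FGC1, FGC2), male germ cells (MGC1, MGC2), female somatic gonadal precursors (FSGP) and anterior, posterior and male-specific male precursors (aMSGP, pMSGP, msSGP). In the study's naming, GC come before transcription of the germline genome is activated. The germ clusters numbered 1 and 2 are successive stages after that. The clusters were recovered for 2006 nuclei from per-gene cluster means, and the remaining 1016 nuclei are called other. Medians per nucleus were 1875 ATAC counts and 2423.5 RNA molecules (UMIs), with ATAC counts from 59 to 58404, so the 1829 nuclei with at least 1000 ATAC counts were used. Only 42 of 754 MGC1 nuclei and 2 of 32 MGC2 nuclei passed. Defining markers followed the class names only in part. Summed germline markers reached 1400 UMIs per 1000000 in germ nuclei, 1102 in gonadal soma and 823 in other nuclei, and vas itself was higher in gonadal soma (188) than in germ nuclei (112). Gonadal soma markers reached 857 in gonadal soma, 193 in germ and 664 in other nuclei, and muscle and fat body markers were highest in other nuclei (471 and 195). When the snRNA counts were clustered anew and the clusters named from these markers, 535 of the 584 gonadal soma nuclei but only 179 of the 1422 germ nuclei fell in clusters of the same name. The ratio of X to autosomal ATAC counts was 0.256 in FSGP, 0.220 in FGC2 and 0.209 in FGC1 but 0.168 in MGC1 and 0.151 in the male precursors. As each group is 1 sample, no test was possible. The 95% intervals below cover counting error only, and differences between clusters are descriptions, since the clusters were made from these counts.

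Chromosome 4, the dot chromosome, is the smallest autosome of the fly. It is packaged largely as heterochromatin, with histone H3 methylated at lysine 9 and bound by the heterochromatin protein HP1a, yet its genes are transcribed. The protein Pof binds its active genes, and the methyltransferase SETDB1, encoded by egg, methylates its histones.

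The sequences of 5 peaks stand for the patterns described below: the peak with most counts (zfh2), the start of the gene that differs most between female and male gonadal soma (Rnf11), the peak most germ-biased against other nuclei (CaMKI), the one most soma-biased against germ (CG32017), and the one lowest in gonadal soma relative to other nuclei (dati). Each is the central 300 bases of its peak, read on the plus strand of the RefSeq BDGP6 assembly, which matches the build of the peak names. Capitals mark letters searched for on both strands. These are GAGAGAG, the repeat bound by GAGA factor, and CGATA, bound by the insulator protein BEAF-32, each in either orientation.
zfh2 intron, chr4:507626-507925: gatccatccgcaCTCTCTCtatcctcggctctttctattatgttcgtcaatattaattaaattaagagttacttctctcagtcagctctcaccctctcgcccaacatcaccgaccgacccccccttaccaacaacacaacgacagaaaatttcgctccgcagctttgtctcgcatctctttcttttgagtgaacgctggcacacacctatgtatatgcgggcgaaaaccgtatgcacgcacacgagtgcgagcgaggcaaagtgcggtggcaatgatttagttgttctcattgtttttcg
Rnf11 start, chr4:315197-315496: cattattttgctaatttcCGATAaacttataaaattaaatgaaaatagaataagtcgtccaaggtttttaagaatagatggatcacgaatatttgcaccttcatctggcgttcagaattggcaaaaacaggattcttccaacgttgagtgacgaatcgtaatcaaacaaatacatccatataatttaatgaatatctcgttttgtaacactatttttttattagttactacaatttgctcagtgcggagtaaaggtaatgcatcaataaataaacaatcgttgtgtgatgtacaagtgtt
CaMKI intron, chr4:448565-448864: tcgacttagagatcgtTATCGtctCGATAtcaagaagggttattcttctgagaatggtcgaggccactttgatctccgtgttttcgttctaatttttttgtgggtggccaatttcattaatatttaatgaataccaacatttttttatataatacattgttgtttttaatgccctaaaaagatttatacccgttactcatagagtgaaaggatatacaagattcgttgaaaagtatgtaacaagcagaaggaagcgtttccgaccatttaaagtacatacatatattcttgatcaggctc
CG32017 exon, chr4:1140962-1141261: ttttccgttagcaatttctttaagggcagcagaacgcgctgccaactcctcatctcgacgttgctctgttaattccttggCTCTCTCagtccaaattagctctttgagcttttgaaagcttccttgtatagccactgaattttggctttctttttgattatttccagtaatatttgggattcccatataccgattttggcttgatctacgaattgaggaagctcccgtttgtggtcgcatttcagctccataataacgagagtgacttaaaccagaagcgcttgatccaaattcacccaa
dati start, chr4:396135-396434: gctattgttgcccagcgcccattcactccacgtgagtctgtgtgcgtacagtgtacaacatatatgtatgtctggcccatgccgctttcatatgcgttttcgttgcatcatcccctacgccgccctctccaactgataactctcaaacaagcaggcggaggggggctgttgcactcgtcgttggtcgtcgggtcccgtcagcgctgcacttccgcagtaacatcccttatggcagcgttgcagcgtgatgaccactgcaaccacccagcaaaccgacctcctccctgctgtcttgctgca
The zfh2 and dati windows contain 47.7% and 56.3% G and C and the Rnf11 window 30.7%, against a median of 40.7% over the 252 peaks.

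Peaks were dense on chromosome 4 but poorer in counts per base. Its 1.35 Mb held 187 peaks per Mb, covering 14.1% of the chromosome, against 149 per Mb and 10.5% on the large arms. Counts were 94.2 per kb of chromosome against 83.8, but 669 per kb of peak against 799. The chromosome's G and C content was 35.3% (42.2% on the large arms), and that of its median peak 40.7% (48.2%). Median peak width was 559 bp against 530. Set beside 75 stretches of the large arms as long as chromosome 4 that hold at least 20 peaks, chromosome 4 had more peaks than 57 and fewer than 18.

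Its peaks lay within genes and away from starts more often than those of the large arms. A peak was called at a start when it came within 250 bp of an annotated transcript start. That held for 79 peaks (31.4%, against 38.2%), which carried 57.1% of the counts (65.2%). Of the others, 87 overlapped an exon, 53 lay in introns and 33 between genes, and the exon share was 34.5% against 20.3%. The genes themselves were long, with a median span of 10090 bp against 2088 bp, and 66 of 80 protein-coding genes (82.5%) had a peak at a start, against 57.3% on the large arms.

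Transposon remnants were the feature that set these peaks apart from the large arms by the widest margin among the features measured. An annotated transposon overlapped 85 of the 252 peaks (33.7%), against 1.91% of large-arm peaks, and these 85 held 36.4% of the counts (2.25%). Transposons made up 24.8% of the chromosome and 14.7% of the bases under its peaks, against 5.79% and 0.923%. INE-1, a short and very old element, lay under 43 peaks, and the DNA transposon 1360 under 24. Cr1a lay under 9 and the F element under 5. The treatment of reads that map to several copies of an element is not stated, and its effect on these counts was not tested.

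Over all peaks, the motif that was more common on chromosome 4 by the widest margin was the DRE, the site of the promoter factor DREF. Within 300 bases and on both strands, TATCGATA (DRE) was found in 12 of 252 peaks (4.76%, against 1.69% of large-arm peaks), CGATA (BEAF-32) in 32.5% (31.6%), GGTCACAC (M1BP) in 1.59% (1.74%), CAGGTAG (Zelda) in 1.59% (2.27%) and GAGAGAG in 5.95% (8.42%). TATCGATA contains CGATA on both strands, so those searches overlap. Away from starts the DRE was in 10 of 173 peaks (5.78%, interval 2.81 to 10.4) against 0.498%. In start peaks it was in 2.53% (large arms 3.615%), or in whole start peaks 19.0% (11.0 to 29.4) against 11.6%. At starts GAGAGAG was in 2.53% of peaks against 10.5%, and CGATA in 44.3% (33.1 to 55.9) against 36.9%, or in whole start peaks 81.0% (70.6 to 89.0) against 68.7%.

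The DRE copies away from starts lay mostly in INE-1 peaks, a look taken after the counts were seen. There, 7 of 27 INE-1 peaks (25.9%, interval 11.1 to 46.3) held one, against 1 of 115 peaks without an annotated transposon (0.870%) and 2 of 38 INE-1 peaks away from starts on the large arms. In the windows of 5 peaks the DRE was inside the element. These 5 copies were picked because they hold the motif, so that they share it is not a result. Of all 43 INE-1 peaks on chromosome 4, 7 held a DRE in the window. The ci copy runs past the end of its peak at 52825, since windows of 300 bases overrun shorter peaks. Each copy is read on the strand of its element, with the DRE in capitals.
ci intron, chr4:52799-52846 (minus strand): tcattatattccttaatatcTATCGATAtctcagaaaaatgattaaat
lncRNA:CR46488 exon, chr4:180815-180862 (plus strand): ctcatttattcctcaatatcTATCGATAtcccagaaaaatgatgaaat
toy intron, chr4:994827-994874 (plus strand): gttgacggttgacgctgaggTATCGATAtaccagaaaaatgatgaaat
CG32017 and Kif3C intron, chr4:1148165-1148212 (minus strand): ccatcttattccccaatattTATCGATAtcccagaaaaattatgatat
Cadps exon, chr4:1234378-1234425 (plus strand): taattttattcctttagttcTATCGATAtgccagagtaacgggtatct
They differed from one another at 8 to 26 of 48 positions. A letter match is a description, and binding was not measured.

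Counts per peak ran from 73 to 3504 over the 1829 nuclei, with a median of 305.5 (289 on the large arms), and the 6 highest peaks held 13.1% of the 126965 counts. Each peak's level is given below in counts per 1000000 autosomal ATAC counts. The highest, in an intron of zfh2 (chr4:506807-508744), a zinc-finger and homeodomain transcription factor, had 302 in germ, 431 in gonadal soma and 387 in other nuclei. The shared start of Pur-alpha and Tdg, a nucleic acid-binding protein and a DNA glycosylase (chr4:556929-559850), had 279, 440 and 373. The start of pan, the TCF factor of Wnt signalling (chr4:68566-70456), was nearly even, at 340, 369 and 372. Sox102F, an HMG-box transcription factor, had 2 such peaks, with 226, 243 and 281 at chr4:834020-836147 and 168 in germ against 240 in gonadal soma at chr4:806878-808717. The start shared by Hcf, a chromatin cofactor, and PMCA, a calcium pump (chr4:357854-360328), was the one of the 6 that was highest in germ nuclei, at 271, 170 and 230. Among starts of housekeeping genes, that of the ribosomal protein gene RpS3A (chr4:66351-67372) had 150, 94.1 and 106, and that of ATPsynbeta, a subunit of ATP synthase, 192, 147 and 173.

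As a whole, chromosome 4 took a larger share of autosomal ATAC counts in germ nuclei, most of them female, than in gonadal soma. The share was 1.47% in germ (589 nuclei, interval 1.45 to 1.48), 1.30% in gonadal soma (481 nuclei, 1.29 to 1.32) and 1.36% in other nuclei (759 nuclei, 1.35 to 1.37). Of the 589 germ nuclei, 522 were female, with 1.48%. The 44 male germ nuclei had 1.26% (1.21 to 1.305), not above gonadal soma. The ratio of germ to gonadal soma was 1.13 (1.11 to 1.14), of germ to other 1.08 (1.06 to 1.09) and of gonadal soma to other 0.957 (0.944 to 0.969). A different total was used when only counts in peaks that overlap a transposon, on chromosome 4 and on the large arms, were taken. The chromosome 4 share of these counts was 17.8% in germ and 19.2% in gonadal soma, a ratio of 0.926 (0.905 to 0.947), and germ over other was 0.982 (0.960 to 1.00). The large-arm transposon peaks themselves took a 1.27-fold larger share of large-arm counts in germ than in gonadal soma (1.26 to 1.29). On chromosome 4, transposon peaks held 37.6% of the counts in germ and 36.6% in gonadal soma. As a share of all autosomal counts, the germ excess was therefore present in these peaks too. In peaks without a transposon the ratio of germ to gonadal soma was 1.12 (1.10 to 1.14). Single nuclei were spread widely within each class, with quartiles of 1.19% and 1.74% in germ and of 1.08% and 1.43% in gonadal soma. Among the 75 stretches of the large arms, 10 had a higher ratio of germ to gonadal soma than chromosome 4, and the range was 0.839 to 1.73. The 20th stretch of 3L and the 1st and 2nd of 3R, left out for having under 20 peaks, had 1.44, 2.085 and 2.27.

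Within the germ class the shares did not line up with sex alone. FGC1 had 1.70% (146 nuclei, 1.67 to 1.73), the highest of the 9 clusters, and GC 1.59% (23 nuclei, 1.501 to 1.67). FGC2 had 1.40% (376 nuclei, 1.38 to 1.41), MGC2 1.36% (2 nuclei) and MGC1 1.22% (42 nuclei, 1.17 to 1.28), the lowest of the 9 at this depth, with an interval that overlaps those of aMSGP, msSGP and MGC2. Over all nuclei, with no minimum, MGC1 had 1.27% (754 nuclei) and aMSGP 1.24%, the lowest. One nucleus gave 45.1% of the GC counts and 1 gave 92.5% of those of MGC2, and for MGC1 it was 20.2%, so these 3 values rest on few nuclei. The gonadal soma clusters lay close together, with 1.32% in FSGP, 1.24% in aMSGP (1.20 to 1.28), 1.31% in pMSGP and 1.31% in msSGP (1.26 to 1.36).

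**Figure D1:**
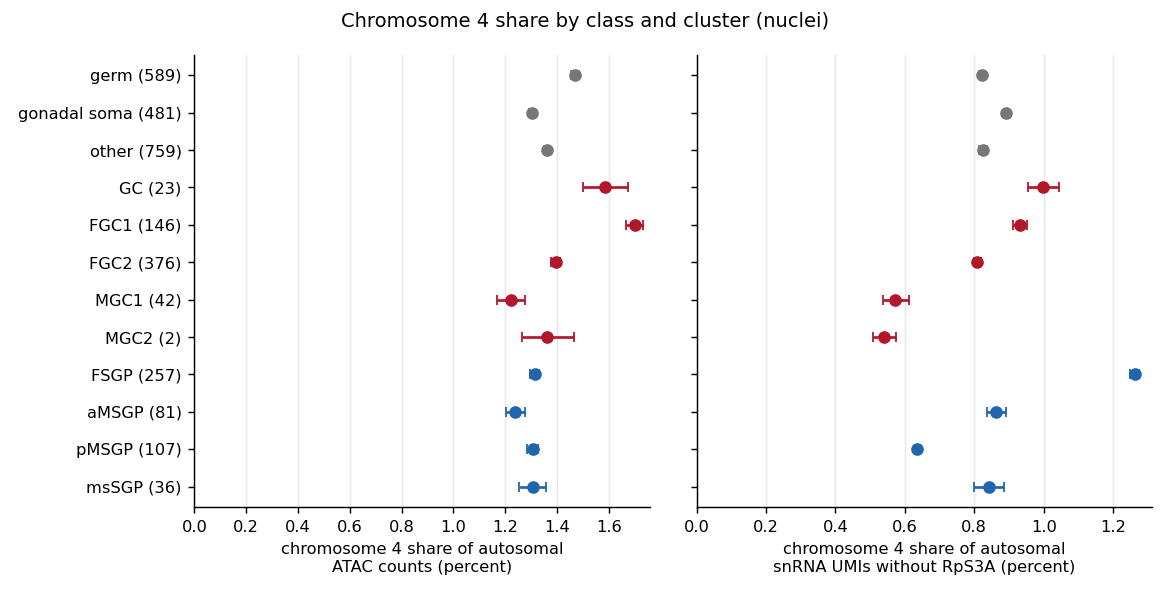
Share of autosomal ATAC counts on chromosome 4 (left, percent) and of autosomal UMIs without RpS3A (right, percent) for classes (grey), germ clusters (red) and gonadal soma clusters (blue), with numbers of nuclei in brackets and bars for exact 95% counting intervals. On the left FGC1 at 1.70% lies above FGC2 at 1.40% and the 4 gonadal soma clusters lie between 1.24% and 1.32%, and on the right FSGP at 1.26% lies above the rest.

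Peak by peak, germ and gonadal soma differed on chromosome 4 about as the large arms did in 1 direction and less in the other. A peak was counted as differing when it was at least 2-fold higher or lower, with at least 50 counts over both classes. Of 249 such peaks, 27 were higher in germ nuclei (10.8%), where the large arms had 12.2%, and 7 were lower (2.81%), where the large arms had 9.79%. The median log2 ratio was 0.27, against 0.30 on the large arms, and the median autosomal peak was itself shifted by 0.30. When that shift was taken out, 11 peaks were higher (4.42%, large arms 5.76%) and 13 lower (5.22%, large arms 14.7%). Which direction holds more peaks thus depends on the scaling, while the share lower in germ was below that of the large arms under both.

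**Figure D2:**
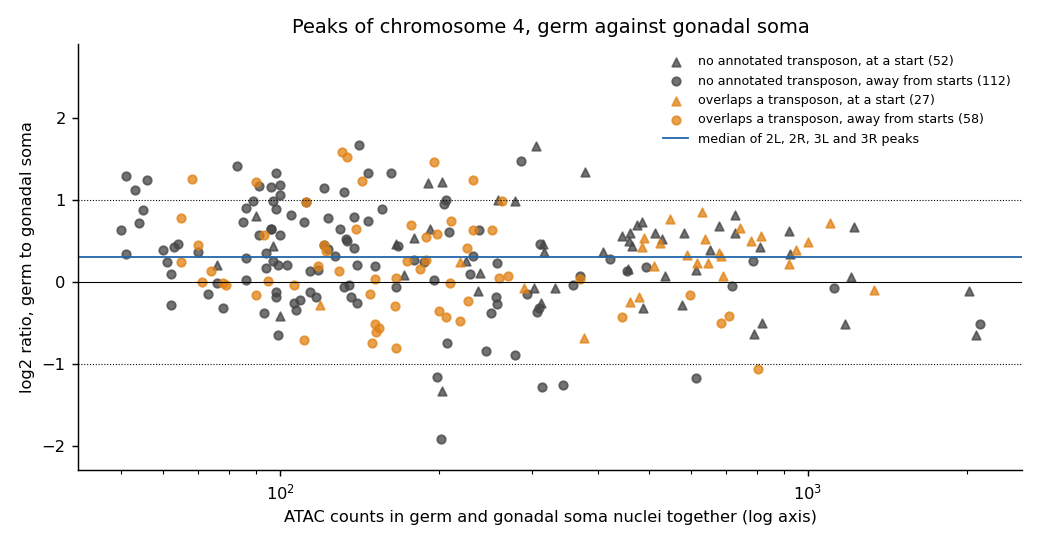
Log2 ratio of germ to gonadal soma (counts scaled to autosomal ATAC counts) against total counts on a log axis for 249 peaks, with triangles at starts, circles away from starts and orange where a transposon overlaps. Dotted lines mark 2-fold, with 27 peaks past the upper and 7 past the lower one, and the blue line is the large-arm median of 0.30.

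Of the 27 peaks higher in germ nuclei, 4 lay close together. Of these, 3 were at starts of dati, a zinc-finger protein gene, at chr4:388328-389049 (log2 1.21), chr4:393249-393788 (1.00) and chr4:395699-396869 (1.66), and 1 was at the start of mir-9385 (chr4:400666-401330, 1.21). The largest ratio was in an exonic peak where PMCA and Rnf11 overlap (chr4:329150-329434), with 39.9 in germ, 12.5 in gonadal soma and 17.8 in other nuclei, a log2 ratio of 1.67 (1.13 to 2.24). The third of the dati peaks had 86.1 in germ and 27.3 in gonadal soma (log2 1.66, 1.29 to 2.04) but 84.4 in other nuclei. It was therefore low in gonadal soma rather than high in germ. An intergenic INE-1 peak (chr4:499249-499527) had 36.4, 12.2 and 18.7 (log2 1.58). An INE-1 peak in CaMKI, a calcium/calmodulin-dependent kinase gene (chr4:448520-448909), had 36.8, 12.8 and 10.9 (log2 1.52). A peak in JYalpha, a sodium/potassium ATPase subunit gene needed for male fertility, at the left end of the assembly (chr4:1202-2128), had 77.8, 27.9 and 28.4 (log2 1.48). The CaMKI and JYalpha peaks and the overlap of PMCA and Rnf11 were more than 2-fold higher in germ than in either other class.

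The 5 peaks lowest in germ nuclei relative to gonadal soma were 4 exon peaks and 1 start. The exon peak of CG32017 (chr4:1140950-1141272) had 14.1 in germ, 53.3 in gonadal soma and 21.7 in other nuclei, a log2 ratio of -1.92 (-2.48 to -1.39). The start of CG1674 (chr4:230979-231513) had 19.6, 49.1 and 40.7 (log2 -1.33). Another 2 exon peaks belonged to sv, the fly Pax2 gene: chr4:1106108-1106903 had 30.9, 75.5 and 43.2 (log2 -1.29), and chr4:1112772-1113686, shared with the calsyntenin gene Cals, had 63.8, 145 and 103 (log2 -1.18). An exon peak of CG33978 (chr4:167344-168041) had 34.4, 82.2 and 47.6 (log2 -1.26). Germ nuclei were the lowest class at all 5.

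Against other nuclei, few peaks differed. Germ nuclei were higher at 5 of 252 peaks (1.98%, large arms 2.26%) and lower at 2 (0.794%, large arms 4.63%). The CaMKI and JYalpha peaks led the higher ones, with log2 ratios of 1.76 (1.21 to 2.34) and 1.45 (1.10 to 1.81). After the overlap of PMCA and Rnf11 (1.16) came an exon of the translation factor gene eIF4G1 (1.04) and an intergenic Fw2 remnant (1.02). The 5 lowest included exon peaks of bt, the muscle protein projectin (-1.40, -2.02 to -0.82), of ey (-0.84) and of toy (-0.71), both Pax6 genes of the eye. The others were the start of CG1674 (-1.06) and an intron of Sox102F (-1.00, just inside the limit). Gonadal soma was higher at 2 of 250 peaks (0.80%, large arms 4.54%), the CG32017 exon (log2 1.30) and an intergenic peak with 1360 and INE-1 (1.14). The next 3 were below 2-fold: the start of the antisense RNA gene asRNA:CR46065 (0.91), the start of CG31997 (0.89) and an intergenic 1360 peak (0.81). It was lower at 15 (6.0%, large arms 12.4%), led by the dati start (-1.63, -1.99 to -1.28), an intron shared by Zyx and apolpp (-1.57), and exons of Hcf (-1.44) and toy (-1.28) with an intron of Syt7 (-1.32).

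Female germ nuclei exceeded male germ nuclei more often on chromosome 4 than on the large arms. Of 195 peaks, 28 were higher in female (14.4%, large arms 8.47%) and 3 lower (1.54%, large arms 10.2%), with a median log2 ratio of 0.23 against 0.02. The share of counts was 1.48% in female and 1.26% in male germ nuclei, a ratio of 1.18 (1.14 to 1.23). The male germ nuclei here number 44, with 213004 autosomal counts against 2262376 in female.

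The 2 female clusters, by the study's naming an earlier (FGC1) and a later stage (FGC2), themselves differed, a comparison added after the shares were seen. FGC1 over FGC2 gave 1.22 (1.19 to 1.25) in summed counts, and medians of single nuclei were 1.74% (quartiles 1.49 to 2.03) and 1.37% (1.16 to 1.61). Their median depths were 4359 and 3985 ATAC counts per nucleus. Of 183 peaks, 16 were at least 2-fold higher in FGC1 (8.74%, large arms 2.68%) and 0 were lower (large arms 1.37%). The shift was spread over the chromosome: 148 of 183 peaks (80.9%) were above 0, against 50.7% of large-arm peaks, and the median log2 ratio was 0.30, against 0.01 on the large arms and -0.07 on the X. It was alike at starts (1.20) and away from them (1.21), and was 1.23 in peaks without a transposon. In transposon peaks chromosome 4 exceeded the large arms by 1.08 (1.04 to 1.12), where the large-arm transposon peaks themselves took a 1.10-fold larger share of large-arm counts in FGC1. The single peaks with the largest ratios were the start of the forkhead gene fd102C (65.2 in FGC1, 24.3 in FGC2; log2 1.42, 0.76 to 2.09), an exon of bt (57.6, 21.8; 1.40) and an exon of CG1909 (39.4, 15.0; 1.40).

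**Figure D3:**
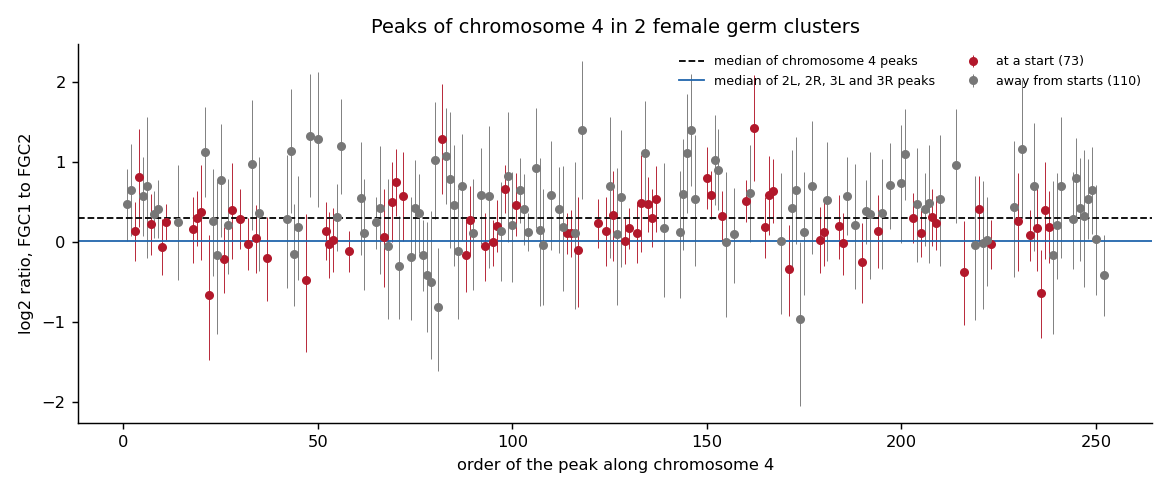
Log2 ratio of FGC1 to FGC2 for 183 peaks in their order along chromosome 4, red at starts and grey elsewhere, with bars for 95% counting intervals and lines for the medians of chromosome 4 (dashed, 0.30) and of the large arms (blue, 0.01). Of these peaks, 148 lie above 0.

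The stretches with a higher ratio than chromosome 4 lay at the ends of the large arms near the centromeres. Among the 75 stretches, FGC1 over FGC2 ranged from 0.903 to 1.51 with a median of 0.994, and 7 exceeded chromosome 4. They were the first 4 of the 18 stretches of 2R, the 18th and 19th of 20 on 3L and the 3rd of 23 on 3R. Transposons made up 4.62% to 44.9% of these 7, against a median of 3.40% over all 75. The 20th stretch of 3L and the 1st and 2nd of 3R, left out for having under 20 peaks, were also above chromosome 4, at 1.45, 1.26 and 1.42. The stretches were a choice made after the shares were seen.

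**Figure D4:**
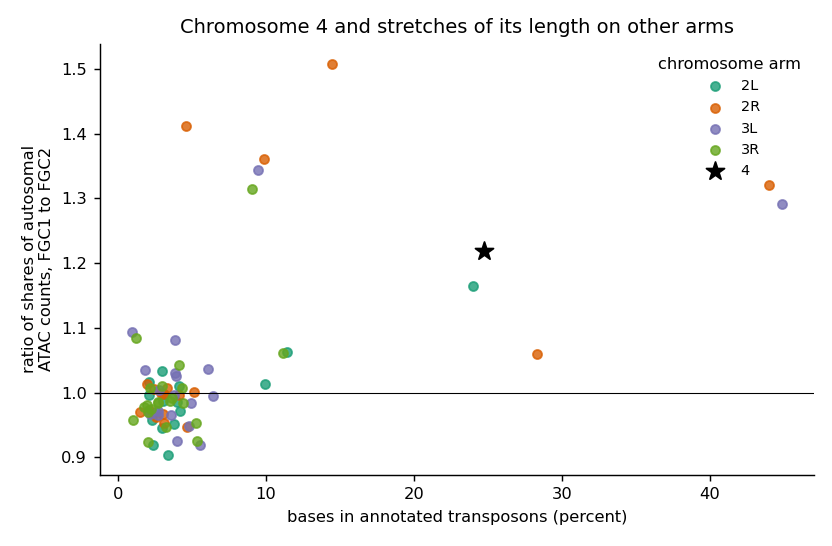
Ratio of FGC1 to FGC2 in the share of autosomal ATAC counts against the percent of bases in annotated transposons, for chromosome 4 (star) and 75 stretches of its length coloured by arm. Chromosome 4 lies at 1.22 with 24.8% transposon bases, above 68 stretches and below 7.

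Genes for factors that act on chromosome 4 chromatin, none of them a member, gave the following transcript levels in UMIs per 1000000 autosomal UMIs. Pof had 19.5 in germ, 12.9 in gonadal soma and 8.00 in other nuclei, and egg 39.3, 27.1 and 19.8. The gene that encodes HP1a was even at 129, 136 and 139. Of 7 such genes with at least 50 UMIs in FGC1 and FGC2 together, wde, the cofactor of SETDB1, was higher in FGC1 (150 against 64.8; log2 1.22, 0.90 to 1.53), as was Su(var)3-7, an HP1a partner (67.4 against 29.8; 1.18, 0.70 to 1.65). The rest of the 7 were within 2-fold, with log2 ratios of 0.34 for Pof, 0.13 for egg and 0.42 for the HP1a gene. G9a had -0.12 and HP1c -0.20. Over the large arms, 240 of 4810 genes were at least 2-fold higher in FGC1. The part of these factors in the accessibility of chromosome 4 was not tested.

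Transcripts were counted for 111 genes of chromosome 4, of which 76 had at least 50 UMIs and 6 had 0. One gene dominated: RpS3A gave 40.7% of the 210284 UMIs. Including it, the chromosome's share of autosomal UMIs was 1.5% in germ, 1.40% in gonadal soma and 1.45% in other nuclei. Without it the order of germ and gonadal soma turned, at 0.823%, 0.891% and 0.825%. The gonadal soma value joined 1.26% in FSGP and 0.666% in the summed male clusters. Of these, aMSGP had 0.863% (0.836 to 0.890) and msSGP 0.842% (0.800 to 0.886), above germ, and pMSGP 0.636%, below it. By medians of single nuclei, germ had 0.8475% and male gonadal soma 0.931%. Rnf11 alone gave 11132 of the 65869 gonadal soma UMIs left without RpS3A, 10036 of them in FSGP. Ribosomal protein genes made up 50.4% of autosomal UMIs in germ nuclei and 48.7% in gonadal soma.

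The 8 genes with most UMIs served basic functions in all classes. On the scale of UMIs per 1000000 autosomal UMIs, RpS3A had 6824 in germ, 5127 in gonadal soma and 6291 in other nuclei, and ATPsynbeta 786, 668 and 680. PMCA had 388, 364 and 458. The TFIID subunit gene bip2 had 492, 348 and 400, eIF4G1 470, 307 and 413, and gw, which encodes the GW182 protein of microRNA silencing, 360, 387 and 351. MED26, a Mediator subunit, had 501, 242 and 383, and within germ nuclei 830 in FGC1 and 395 in FGC2. The exception was CG32850, now Rnf11, a RING finger gene (chr4:314923-331387), with 214, 1499 and 358. Within gonadal soma it had 3580 in FSGP and 237 in the male clusters.

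By the 2-fold rule with at least 50 UMIs, 13 of 75 genes were higher in germ nuclei than in gonadal soma (17.3%, large arms 12.1%) and 7 lower (9.33%, large arms 12.7%). The median log2 ratio was 0.21, against 0.18. Most of the higher ones were expressed at low levels. The ratio was largest for bt (11.9 in germ, 2.15 in gonadal soma; log2 2.46, 1.63 to 3.37), yet other nuclei had 127. The TGF-beta family ligand gene mav followed (76.8 and 17.2; 2.16, 1.86 to 2.46), then zfh2 (49.2 and 12.8; 1.94), Sox102F (15.2 and 4.71; 1.69) and sv (7.68 and 2.56; 1.59). The lower genes were led by Rnf11 (log2 -2.81, -2.91 to -2.72), then lncRNA:CR43958 (1.54 and 9.69; -2.66), the kinesin gene Kif3C (10.5 and 43.9; -2.06), Pur-alpha (33.2 and 119; -1.84) and ci, the transcription factor of Hedgehog signalling (27.0 and 75.3; -1.48). The span of lncRNA:CR43958 lies inside Tdg on the same strand, so its UMIs cannot be told apart with certainty from those of Tdg (listed as Thd1), which fell on the same side (36.9 and 87.5; -1.25).

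Against other nuclei, germ nuclei were higher for 3 of 73 genes (4.11%, large arms 5.18%) and lower for 6 (8.22%, large arms 12.6%). The higher genes were yellow-h (17.1 and 6.48; log2 1.40), lncRNA:sphinx (1.30) and CG32017 (26.8 and 12.6; 1.09), and next, under 2-fold, dati (0.94) and Sox102F (0.85). The lower ones were bt (11.9 and 127; -3.43), apolpp, the lipid carrier of the fat body (20.9 and 189; -3.18), ci (-1.71), CG33521 (-1.21), pan (127 and 283; -1.16) and Pur-alpha (-1.01). Gonadal soma was higher for 3 of 73 (4.11%, large arms 8.18%), Rnf11 (log2 2.07, 1.97 to 2.16), lncRNA:CR43958 (1.67) and Kif3C (1.42), ahead of the small GTPase gene Arl4 (0.99) and Pur-alpha (0.83). For Rnf11 only FSGP was high (3580), as male gonadal soma had 237 against 358 in other nuclei. Gonadal soma as a class was lower for 9 (12.3%, large arms 10.0%), led by bt (-5.89), apolpp (-3.80), zfh2 (-2.66), Syt7 (-2.35) and CG33521 (-2.33). Muscle markers summed to 76.5 UMIs per 1000000 in germ, 85.8 in gonadal soma and 471 in other nuclei, and fat body markers, a list that holds apolpp, to 19.3, 14.2 and 195. Their part in the levels of bt and apolpp was not tested.

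By function, transcription factor genes held 4 of the 13 genes higher in germ nuclei. Of 14, 10 had enough UMIs for germ against gonadal soma: ey, sv, zfh2 and Sox102F were higher, ci lower, where 12.1% of all large-arm genes were higher and 12.7% lower, and the list's median log2 ratio was 0.32 (all large-arm genes 0.18). Of 12 signalling and guidance genes, among them the TGF-beta family ligand myo, the receptors Eph, PlexA and PlexB and the ligand Ephrin, 11 were compared and 0 differed 2-fold, with a median of -0.09. The list does not hold mav, also a TGF-beta family ligand gene, which was higher in germ nuclei (log2 2.16). Of 9 synaptic and neuronal genes, 7 were compared: Syt7 was higher and Pur-alpha lower. Among 3 muscle and cytoskeleton genes bt was higher and Kif3C lower. Of 11 ribosome, energy and RNA genes 0 were higher and 1, Thd1, was lower, with a median of 0.21.

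Accessibility at a gene's start and its transcript ratio were nearly unrelated on this chromosome. For 66 genes with a start peak and enough UMIs, Spearman's rho between the log2 ratios of germ to gonadal soma was 0.12. It describes genes of 1 library, which are not replicates. Both ratios were above 0 for 23 genes and below 0 for 8. At Pur-alpha both were lower in germ, with log2 -0.66 at the start peak and -1.84 in UMIs. At Rnf11 they were opposite, 0.60 and -2.81, and at CG1674 too, -1.33 and 0.72.

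Female and male gonadal soma differed in transcripts of chromosome 4 but hardly in its accessibility, a comparison also added after the shares were seen. FSGP over the 3 male clusters gave 1.02 (0.9997 to 1.04) for the share of ATAC counts. Of 188 peaks, 2 were higher in FSGP (1.06%, large arms 1.48%) and 1 lower (0.532%, large arms 3.01%). In UMIs without RpS3A, the share was 1.26% in FSGP (1.25 to 1.28), 0.863% in aMSGP, 0.636% in pMSGP and 0.842% in msSGP. The ratio was 1.90 (1.87 to 1.92), but by medians of single nuclei (1.34% and 0.931%) it was 1.43. Without pMSGP the ratio of summed shares was 1.47. Median depths were 2080 UMIs per nucleus in FSGP and 2591.5 in the male clusters. The 107 pMSGP nuclei gave 3995074 of the 4624766 autosomal UMIs of the male clusters, and 1 nucleus gave 9.89% of all male UMIs. Summed male values, here and per gene below, are therefore mainly those of pMSGP.

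The excess over the summed male clusters was spread over many genes and led by one. Of 64 genes, 8 were at least 2-fold higher in FSGP (12.5%, large arms 6.64%) and 0 lower (large arms 11.8%). The median log2 ratio was 0.59, against -0.11 on the large arms and 0.39 on the X, and 57 of 64 (89.1%) were above 0, against 43.0%. Long genes were higher in FSGP on the large arms too, with medians of -0.22 for spans under 5 kb, 0.11 from 5 to 15 kb and 0.36 above. In the same bins chromosome 4 had 0.35 (17 genes), 0.66 (26) and 0.61 (21). Besides Rnf11 the 8 held the synaptic vesicle priming gene unc-13 (232 in FSGP, 86.3 in male soma; log2 1.43, 1.24 to 1.61), Pur-alpha (188 and 77.0; 1.29), Kif3C (69.9 and 28.1; 1.32), apolpp (23.2 and 7.78; 1.58), CG32017 (1.27), lncRNA:CR44440 (1.80) and asRNA:CR44029 (1.53). The male clusters were not alike. In aMSGP, pMSGP and msSGP, unc-13 had 170, 74.1 and 147, and Pur-alpha 148, 66.1 and 141. Kif3C had 44.2, 26.8 and 16.9 there, apolpp 15.5, 6.26 and 22.6, and CG32017 2.21, 6.76 and 0. For lncRNA:CR44440 the levels were 8.84, 5.26 and 11.3. For asRNA:CR44029 they were 28.7, 7.26 and 11.3, against 27.5 in FSGP. RpS3A went the other way, at 4349 in FSGP and 5598 in male soma (log2 -0.36).

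**Figure D5:**
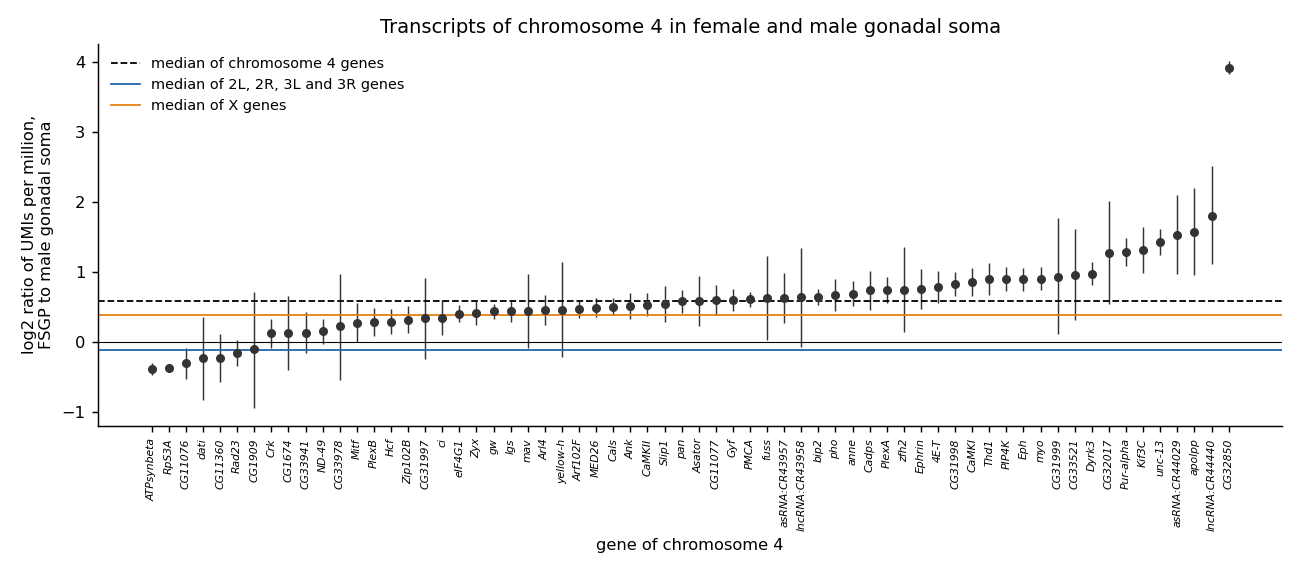
Log2 ratio of FSGP to male gonadal soma in UMIs for 64 chromosome 4 genes in order of the ratio, with bars for 95% counting intervals and lines for the medians of chromosome 4 (dashed, 0.59), the large arms (blue, -0.11) and the X (orange, 0.39). CG32850 (Rnf11) stands at 3.92, and 57 genes lie above 0. Male values are summed UMIs, most of them from pMSGP.

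Rnf11 gave 3580 UMIs per 1000000 in FSGP, 363 in aMSGP, 220 in pMSGP and 299 in msSGP. FSGP exceeded the male clusters 15.1-fold (14.2 to 16.1). Germ clusters lay between 21.3 (MGC2, 4 UMIs) and 530 (MGC1, 84 UMIs), so the level in FSGP was above that of every other cluster. Among single nuclei the FSGP median was 1748 (quartiles 847 to 2874, 257 nuclei) and the male medians 199, 11.4 and 125. The highest nucleus gave 5.95% of the 10036 UMIs in FSGP but 41.5% of the 879 in pMSGP.

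The start peak of Rnf11, whose sequence is given above, did not follow its transcript. It had 69.6 counts per 1000000 in FSGP, 70.3 in aMSGP and 82.4 in pMSGP, and FSGP over male soma was -0.16 on the log2 scale (-0.55 to 0.23). Germ nuclei had more there, 111. A second Rnf11 peak with 1360 and INE-1 sequence (chr4:317353-319548) had 98.2 in germ, 139 in gonadal soma and 98.9 in other nuclei, and its ratio of FSGP to male soma was 0.32 (0.04 to 0.60).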

How the data were processed

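Open chromatin and nuclear RNA were measured in 1 multiome library (10x Genomics). Per the labels and the study's methods, the authors mapped reads with Cell Ranger ARC 1.0.0 to BDGP6.28.102, removed empty droplets (DropletUtils), nuclei under 1000 RNA counts and doublets (scDblFinder), filtered nuclei and called peaks (MACS2) within Signac, and clustered nuclei on both kinds of data. They deposited whole-number ATAC counts per peak and UMI counts per gene for each nucleus, not normalized. Whether an ATAC count is a fragment or a fragment end is not stated. The collection windows in the labels end at 4, 8, 12, 16 and 20 h, and the study's text groups them differently.

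The deposited tables name no clusters. The nuclei of each of the 9 clusters were found as the set whose UMIs add up to the cluster means that the study lists for 1999 genes. Of 1791 sums left out of the solution, 1791 were met exactly. Of 17807 genes, 17735 (99.6%) were placed on BDGP6, and the rest held 0.647% of UMIs.

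Counts were summed over nuclei with at least 1000 ATAC counts and divided by those on 2L, 2R, 3L, 3R and 4. Intervals are exact 95% intervals, Clopper-Pearson for shares and conditional for ratios, and cover counting error only. PCR copies of ATAC fragments are not independent molecules. With 1 sample per group nothing was tested, and calls follow a fixed size (2-fold, at least 50 counts). Named peaks and genes were the 6 peaks and 8 genes with most counts, the 5 with the largest ratio in each direction of each class comparison, starts of listed genes, and list members. Further peaks are named where they lead a comparison, and Rnf11's second peak and the genes past 2-fold in FSGP were named after their values were seen. Members and lists were chosen with earlier results of these data known. The comparisons of FGC1 with FGC2 and of FSGP with male soma, the stretches of the large arms and the look at INE-1 and the DRE were added after the data were seen. Alternatives were other minimums, folds, scalings, depths, start windows and classes. The tools were scanpy 1.11.5 for new clusters, scipy 1.17.1 for intervals and matplotlib 3.10.9 for figures, run in Python 3.11.15 with pandas 2.3.3 and numpy 2.4.6.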

Additional observations from a re-analysis of the deposited data

How the results depend on the processing

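Of 85 alternatives, 53 were labelled as leaving the value the same, 30 as moving it and 2 as reversing it. For shares, ratios and percentages, which have an interval, the same means inside the interval of the main value. Numbers of peaks or genes and Spearman's rho had no interval, so for them the label was not set against an error. For example, 18 peaks higher in germ at a minimum of 100 counts were labelled the same as 27. The alternatives for FGC1 with FGC2 and FSGP with male soma were chosen after seeing the data. The causes were not tested. The ratio of germ to gonadal soma in chromosome 4 ATAC share (1.13) was 1.19 with classes from new clusters and 1.146 away from starts. Germ over other (1.08) was 1.116 with new clusters, 1.119 by medians of single nuclei, 1.123 away from starts and 1.062 over all counts with X and Y. Gonadal soma over other (0.957) was 0.9374 with new clusters, 0.9827 by medians, 0.9389 at starts and 0.9802 away from them. Peaks higher in germ than in gonadal soma (27) numbered 74 at 1.5-fold, 11 with median scaling and 12 with each nucleus thinned to 1000 counts. Those lower (7) numbered 18, 13 and 3. For chromosome 4 UMIs, germ over gonadal soma (1.07) was 1.046 with all nuclei and turned to 0.9233 without RpS3A and 0.981 by medians. Genes higher in germ (13) numbered 25 at 1.5-fold. In whole peaks the DRE was in 9.524% (large arms 4.986%), BEAF-32 in 53.57% (51.7%), Zelda in 4.762% (4.845%) and the GAGA repeat in 11.11% (16.08%). FGC1 over FGC2 (1.22) was 1.27 by medians. FSGP over male soma in UMIs without RpS3A (1.90) was 1.41 also without CG32850, 1.807 without ribosomal protein genes, 1.793 without the largest nucleus of each group, 1.434 by medians and 1.473 without pMSGP. The CG32850 ratio (15.1) was 14.07 without the largest nucleus and 10.39 without pMSGP. No paired analysis was possible because the library is a single sample with no replicate numbers.

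The main limits are the single library, the 1193 nuclei under 1000 ATAC counts, and the few male germ nuclei (44). Counts of 73 to 3504 per peak leave ratios of single peaks with wide intervals, and differences within those intervals were not detectable at this depth. Fewer cells of a type and less signal per cell cannot be told apart in summed classes that mix cell types.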
